A study of Mus musculus with 65 samples.

Results

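LDB1 binding sites, mapped by ChIP-seq (sequencing of DNA pulled down with an antibody to a chromatin protein), were compared between 2 untreated sublines of the mouse erythroblast cell line G1E-ER4. In LDB1-AID cells LDB1 itself bears the AID tag, which lets auxin trigger the destruction of the tagged protein, and in SMC3-AID cells the tag is on the cohesin subunit SMC3. Neither had received auxin, so the compared groups differ in the tagged protein and in all else that separates the sublines. Whether a subline is 1 clone, and which antibody was used, is not given in the sources used here. Each group is represented by 1 list of consensus peaks that the authors made from its replicates, 2 for LDB1-AID and 3 for SMC3-AID cells. The LDB1 peaks were sorted into shared peaks, which overlapped a peak of the other subline by at least 1 bp, and peaks called in 1 subline only. On chromosomes 1 to 19 and X there were 10729 LDB1 peaks of LDB1-AID and 8585 of SMC3-AID cells, together 19314 of the 143220 peaks in the 9 sets of the series.

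LDB1 does not bind DNA itself. In red cell precursors it is brought to enhancers and promoters by a complex with the DNA-binding proteins GATA1 and TAL1 and the bridging factor LMO2, and its self-association can join distant sites into loops. Cohesin, of which RAD21 and SMC3 are subunits, extrudes chromatin loops and stalls at the DNA-binding protein CTCF, while YY1 is a DNA-binding protein found at many promoters and enhancers.

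Peak lists hold positions only, with no height, so read depth is unknown and no value here has a replicate error. Intervals given below are 95% intervals of counting error (Wilson for shares). Every test is a two-sided Fisher's exact test on counts of peaks, with p-values adjusted by Benjamini-Hochberg over 18 tests. Such a test compares classes of peaks in these lists and not the sublines, since neighbouring peaks are not independent and each subline gave 1 list. As a check on how widely a difference was spread, it was also counted on how many of the 20 chromosomes it had the same direction. The YY1, CTCF and main RAD21 peaks used to describe the classes all came from untreated LDB1-AID cells, so for LDB1 peaks of SMC3-AID cells they describe the site in the other subline. A second RAD21 list came from SMC3-AID cells.

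The larger list held most of the smaller one. Of the 10729 LDB1-AID peaks, 7192 were shared (67.0%, interval 66.1 to 67.9) and 3537 were called in LDB1-AID cells only (33.0%). Of the 8585 SMC3-AID peaks, 7219 were shared (84.1%, 83.3 to 84.9) and 1366 were called in SMC3-AID cells only (15.9%). The shared counts differ because 27 LDB1-AID peaks each overlapped 2 SMC3-AID peaks, while 0 SMC3-AID peaks overlapped 2 LDB1-AID peaks. Counting each shared site once, the sublines together had 12095 LDB1 sites. Since the lists differ in length and their depth is unknown, a missing peak and a peak below the caller's threshold cannot be told apart.

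Shared peaks lay almost on top of each other. The midpoint of the nearest SMC3-AID peak was a median of 25 bp from that of the LDB1-AID peak (quartiles 12 and 47 bp), although an overlap of 400 bp intervals would have allowed almost 400 bp. The offset was at most 50 bp for 78.1% of shared peaks and at most 100 bp for 93.5%. It had no preferred side: the SMC3-AID midpoint had the higher coordinate at 3512 peaks, the lower at 3572 and the same at 108, with a signed median of 0 bp. For comparison within 1 subline, the 6715 untreated SMC3-AID peaks that overlapped an SMC3-AID peak called after 4 h of auxin had a median offset of 19 bp, and 88.1% were within 50 bp.

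**Figure D1:**
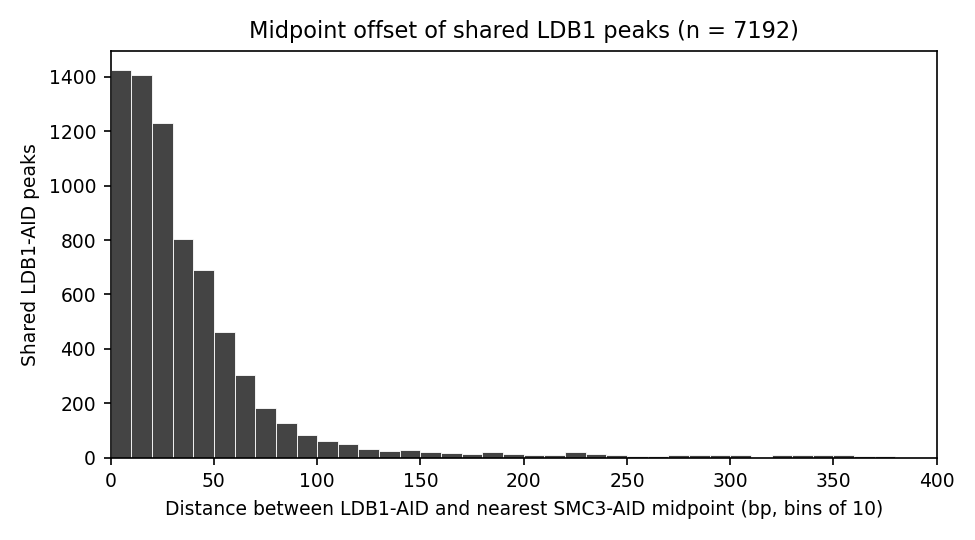
Number of shared LDB1-AID peaks (vertical axis) by the distance in bp between their midpoint and the nearest SMC3-AID midpoint (horizontal axis, bins of 10 bp). Of the 7192 peaks, 78.1% lie at 50 bp or less, and 72 lie at 300 bp or more.

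Few peaks lay at the immediate border between the classes. Among shared peaks 72 (1.001%) had an offset of 300 bp or more, the largest being 395 bp. Just outside the overlap, 16 LDB1-AID only peaks had their nearest SMC3-AID midpoint at 400 bp or more but under 500 bp, and 0 of these neighbours was itself shared. For SMC3-AID only peaks there were 60 (4.39%), and 37 of these lay beside an LDB1-AID peak that was itself shared. These 37 SMC3-AID only peaks thus lay next to a shared site. Other matching rules moved more peaks. Where sharing needed an overlap of 50% of both peaks, there were 1577 SMC3-AID only and 3721 LDB1-AID only peaks. Where a gap of up to 1 kb still counted as shared, there were 1222 and 3341.

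Offsets were slightly larger at shared peaks with RAD21. They were at most 50 bp at 76.0% of 2045 shared peaks with RAD21 and at 79.0% of 5147 without, an odds ratio of 0.846 (0.749 to 0.955; adjusted exact p = 0.00998), lower with RAD21 on 13 of 20 chromosomes. With a limit of 25 bp that odds ratio was 0.912 and the difference did not pass the test. With a limit of 100 bp, 91.8% of peaks with RAD21 and 94.2% of those without were inside, an odds ratio of 0.696 (0.572 to 0.847) that passed it. For YY1 the shares were 76.6% with and 78.6% without (odds ratio 0.891, 0.782 to 1.02; adjusted exact p = 0.100), and for CTCF 75.5% and 78.3% (0.85, 0.688 to 1.05; adjusted exact p = 0.148). With the limit of 100 bp, 91.3% of peaks with YY1 and 94.2% of those without were inside, an odds ratio of 0.646 that passed the test.

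YY1 marked shared peaks more often than either unshared class. A YY1 peak overlapped 1648 of 7192 shared LDB1-AID peaks (22.9%, 21.96 to 23.9), 542 of 3537 LDB1-AID only peaks (15.3%, 14.2 to 16.6) and 55 of 1366 SMC3-AID only peaks (4.03%, 3.11 to 5.20). The odds of YY1 at shared peaks were 1.64 times those at LDB1-AID only peaks (1.48 to 1.83; adjusted exact p = 3.40e-20), with a higher share on 20 of 20 chromosomes. Against SMC3-AID only peaks they were 7.11 times as high (5.40 to 9.36; adjusted exact p = 2.66e-74), counted over the 7219 shared SMC3-AID peaks, of which 23.0% had YY1. The size of this last value depended on how peaks were matched. It was 3.37 where sharing needed an overlap of 50% of both peaks and 12.2 where a gap of up to 1 kb still counted as shared.

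The 2 unshared classes also differed from each other in YY1. LDB1-AID only peaks had 4.31 times the odds of SMC3-AID only peaks (3.24 to 5.74; adjusted exact p = 1.18e-31), with a higher share on 19 of 20 chromosomes. The value ranged from 2.25 to 7.34 under the same changes of matching. YY1 was mapped in LDB1-AID cells, and whether YY1 binding in SMC3-AID cells would give the same order was not tested. YY1 was also farther away: where it did not overlap, the nearest YY1 peak lay a median of 18.2 kb from shared LDB1-AID peaks, 19.1 kb from LDB1-AID only peaks and 52.3 kb from SMC3-AID only peaks.

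**Figure D2:**
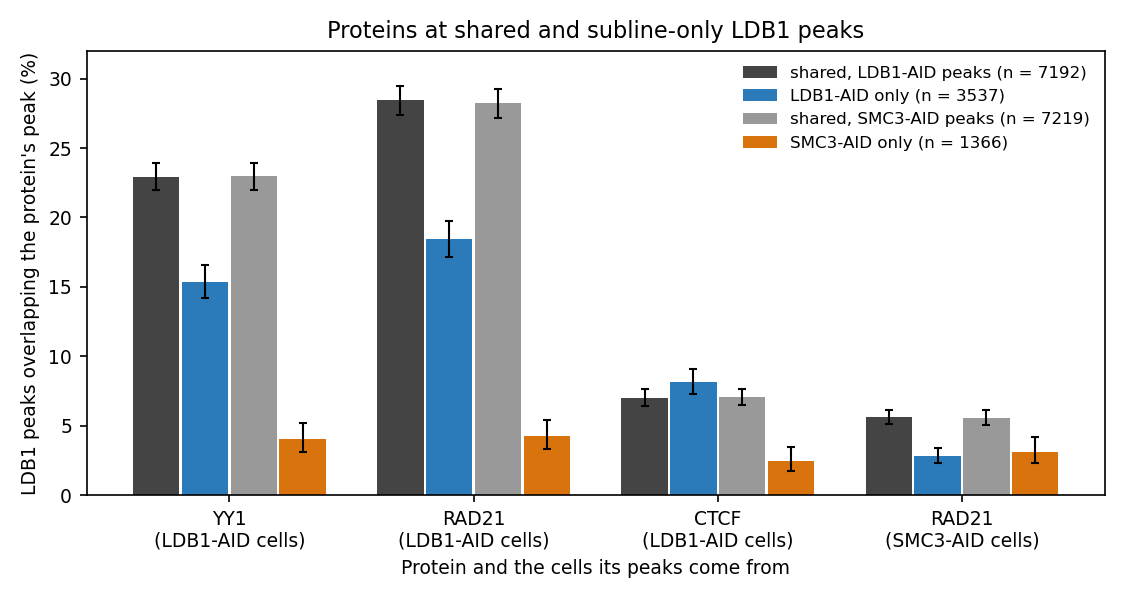
Share of LDB1 peaks (vertical axis, %) that overlapped a peak of YY1, RAD21 or CTCF of LDB1-AID cells, or of RAD21 of SMC3-AID cells, in each class of LDB1 peaks. Bars are shares and error bars Wilson 95% intervals; the SMC3-AID only class is at 4.03% for YY1 and 4.25% for RAD21 of LDB1-AID cells, while with RAD21 of SMC3-AID cells it is at 3.15%, beside 2.83% in the LDB1-AID only class.

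RAD21 of LDB1-AID cells followed the same order as YY1. It overlapped 2045 shared LDB1-AID peaks (28.4%, 27.4 to 29.5), 652 LDB1-AID only peaks (18.4%, 17.2 to 19.8) and 58 SMC3-AID only peaks (4.25%, 3.30 to 5.45). Shared peaks had 1.76 times the odds of LDB1-AID only peaks (1.59 to 1.94; adjusted exact p = 1.21e-29) and 8.87 times those of SMC3-AID only peaks (6.78 to 11.6; adjusted exact p = 1.27e-102). LDB1-AID only peaks exceeded SMC3-AID only peaks 5.10-fold in odds (3.87 to 6.72; adjusted exact p = 3.64e-43). All 3 differences had the same direction on 20 of 20 chromosomes. With a RAD21 peak allowed up to 1 kb away, the last 2 values were 4.00 and 2.48.

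The RAD21 list of SMC3-AID cells did not separate the unshared classes by the test. It was the shorter list, with 15223 peaks against 33160, and it overlapped 404 shared LDB1-AID peaks (5.62%), 100 LDB1-AID only peaks (2.83%, 2.33 to 3.43) and 43 SMC3-AID only peaks (3.15%, 2.35 to 4.21). Shared peaks again stood above LDB1-AID only peaks (odds ratio 2.05, 1.64 to 2.56; adjusted exact p = 5.94e-11) and above SMC3-AID only peaks (1.82, 1.32 to 2.51; adjusted exact p = 1.77e-04). Between the 2 unshared classes the odds ratio was 0.895, with an interval of 0.623 to 1.29 that takes in equality (adjusted exact p = 0.570). LDB1-AID only peaks had the higher share on 12 of 20 chromosomes and the lower on 8. The odds ratio turned to 1.13 without the first 3.1 Mb of chromosome 9, where SMC3-AID peaks crowd, an omission chosen after the values were seen. The unshared classes were thus apart in RAD21 by the list of LDB1-AID cells, while the interval by the list of SMC3-AID cells lay below that difference. The 2 lists were not tested against each other.

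Read peak by peak, the lists overlapped differently in each class. Of the 1366 SMC3-AID only peaks, 16 had RAD21 in both lists, 42 in the LDB1-AID list alone, 27 in the SMC3-AID list alone and 1281 in neither. Of the 3537 LDB1-AID only peaks, 93 had RAD21 in both, 559 in the LDB1-AID list alone, 7 in the SMC3-AID list alone and 2878 in neither. Cohesin called in SMC3-AID cells alone was thus found at 1.98% (1.36 to 2.86) of SMC3-AID only peaks, 0.198% (0.0959 to 0.408) of LDB1-AID only peaks and 0.556% (0.409 to 0.756) of shared LDB1-AID peaks. Of the 27 SMC3-AID only peaks, 18 lay outside the start of chromosome 9, or 1.33% (0.845 to 2.10) of the 1350 there, and 13 lay outside 10 blocks of at least 5 consecutive RAD21 peaks called in SMC3-AID cells alone, or 0.994% of 1308. The blocks were picked by such RAD21 peaks, so a lower share outside them follows from the choice. These are descriptions with no test.

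CTCF, which occupied far fewer LDB1 peaks, did not separate shared from LDB1-AID only peaks in the way YY1 and RAD21 did. It overlapped 7.02% (6.45 to 7.64) of shared LDB1-AID peaks and 8.17% (7.31 to 9.12) of LDB1-AID only peaks, an odds ratio of 0.849 (0.730 to 0.987; adjusted exact p = 0.0439), with a lower share in shared peaks on 15 of 20 chromosomes. The direction turned when CTCF within 1 kb was counted (1.06). When CTCF, RAD21 and YY1 were entered jointly in a logistic model, the odds ratio was 0.631. SMC3-AID only peaks had the least CTCF, at 34 of 1366 (2.49%, 1.79 to 3.46), against 7.05% of shared SMC3-AID peaks (2.97, 2.09 to 4.23; adjusted exact p = 6.37e-12). In the same model the last difference did not pass the test (1.35). LDB1-AID only peaks had 3.49 times the odds of CTCF at SMC3-AID only peaks (2.43 to 5.002; adjusted exact p = 1.99e-14), and 1.78 times when CTCF within 1 kb was counted.

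The combinations at single LDB1 peaks showed where the classes parted. None of YY1, RAD21 and CTCF was present at 57.7% of shared LDB1-AID peaks, 69.1% of LDB1-AID only peaks and 91.6% (90.0 to 92.9) of SMC3-AID only peaks. RAD21 together with YY1 but without CTCF was present at 653 shared (9.08%), 138 LDB1-AID only (3.90%) and 7 SMC3-AID only peaks (0.512%). Read the other way, 98.9% (97.8 to 99.5) of the 655 SMC3-AID peaks with RAD21 and YY1 in the absence of CTCF were shared, against 76.9% (75.8 to 78.0) of the 5417 with none. In the LDB1-AID list the corresponding shares were 82.6% (79.8 to 85.0) of 791 and 62.9% (61.8 to 64.1) of 6593. LDB1-AID peaks with CTCF alone were shared in 56.3% of 215 cases (49.6 to 62.7), the lowest share of the 8 combinations. These shares are a description without a test.

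In both lists shared peaks had a close LDB1 neighbour somewhat more often than unshared peaks. Another LDB1 peak of the same list lay within 25 kb of 63.5% (62.3 to 64.6) of shared LDB1-AID peaks and 60.0% (58.4 to 61.6) of LDB1-AID only peaks (odds ratio 1.16, 1.06 to 1.26; adjusted exact p = 8.97e-04). The shared peaks had the higher share on 13 of 20 chromosomes. In the SMC3-AID list the shares were 56.2% (55.0 to 57.3) for shared and 50.2% (47.5 to 52.8) for SMC3-AID only peaks (1.27, 1.13 to 1.43; adjusted exact p = 8.57e-05; 16 of 20 chromosomes). With sharing by 50% of both peaks the second odds ratio was 1.06, and with neighbours within 10 kb it was 1.10, neither past the test. The first was 0.939 among LDB1-AID peaks that were also called after auxin in SMC3-AID cells, a subset chosen after the values were seen.

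Unshared peaks were not, in the main, small shifts of a peak in the other subline. The nearest LDB1 peak of the other subline lay a median of 26.7 kb from LDB1-AID only peaks and 46.7 kb from SMC3-AID only peaks. Within 25 kb the shares were 48.8% (47.1 to 50.4) and 38.3% (35.8 to 40.9). At 1 kb the order was the opposite, with 2.97% (2.46 to 3.58) of LDB1-AID only and 8.86% (7.46 to 10.5) of SMC3-AID only peaks. The lists searched differ in length, 8585 peaks for the first class and 10729 for the second, so the second class had more peaks to find.

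**Figure D3:**
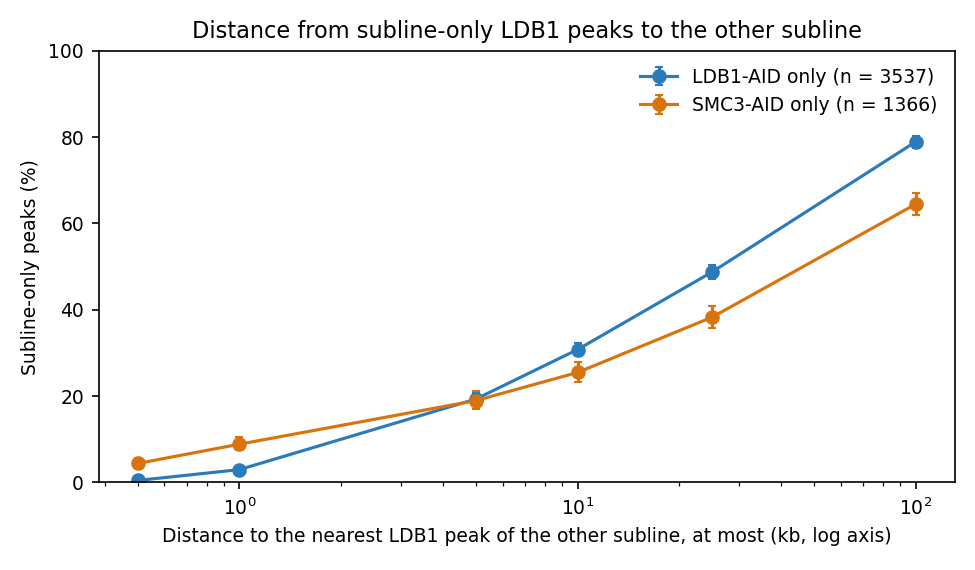
Share of LDB1-AID only and SMC3-AID only LDB1 peaks (vertical axis, %) whose nearest LDB1 peak of the other subline lies within the distance on the horizontal axis (kb, log scale); error bars are Wilson 95% intervals. The curves cross near 5 kb, with 19.31% and 18.96%, and at 100 kb they stand at 78.9% and 64.5%.

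When LDB1 sites of both sublines were chained wherever midpoints lay within 25 kb, they formed 7097 regions, of which 4443 held a single site. Shared sites alone made up 3215 regions. A further 1148 held shared and LDB1-AID only sites, 278 held shared and SMC3-AID only sites, and 135 held all 3 classes. LDB1-AID only peaks made up 1548 regions by themselves and SMC3-AID only peaks 734. An LDB1-AID only peak lay in a region with a shared site in 49.4% of cases (47.8 to 51.0) and stood alone in 38.9%. For an SMC3-AID only peak these shares were 35.2% (32.7 to 37.8) and 47.6%. Thus the LDB1-AID only peaks lay more often beside shared sites, and the SMC3-AID only peaks more often by themselves, a description without a test.

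Single regions show these mixtures. Coordinates are in build mm9, counted from 1, and genes were not assigned because no annotation of this build was used here. The region with the most shared sites, chr8:124808383-124873759, spanned 65.4 kb and held 11 shared and 2 LDB1-AID only sites, with YY1 at 4, RAD21 at 4 and CTCF at 1 of the 13. At chr11:11700317-11795857, 10 shared sites stood with 3 LDB1-AID only and 3 SMC3-AID only peaks over 95.5 kb. All 3 of those SMC3-AID only peaks were also called in SMC3-AID cells after auxin, and 0 of the 3 LDB1-AID only peaks were. At the chr8 region 1 of the 2 LDB1-AID only peaks was. Over the whole classes the shares were 51.5% and 9.42%. Both regions were dense in LDB1 sites in either subline.

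Some regions held no unshared site. At chr4:89112087-89190668, 9 sites over 78.6 kb were all shared, 5 with RAD21 and 2 with YY1. At chr8:125190201-125260500, 9 sites over 70.3 kb were all shared, 4 with RAD21 and 3 with YY1. In SMC3-AID cells after auxin, 8 of the 9 sites at the first region and all 9 at the second were also called. Among all shared LDB1-AID peaks the share was 83.3%.

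Most regions rich in LDB1-AID only peaks also held shared sites, as did most regions of 5 or more sites of any class. Of 281 such regions, those without a shared site were few. They were 1 of LDB1-AID only peaks, 1 of SMC3-AID only peaks and 2 of both unshared classes. At chr1:152976139-153062655, 7 LDB1-AID only peaks stood among 5 shared sites, with RAD21 at 7 of the 12. A further 8 regions held 5 LDB1-AID only peaks, 7 with and 1 without a shared site. The first of them along the genome, chr1:36927301-37000940, also held 5 shared sites, with YY1 at 5 of the 10 sites. The one without a shared site was chr12:76825029-76882800, where 5 LDB1-AID only peaks lay over 57.8 kb, 1 with YY1 and 0 with RAD21 or CTCF. A second, chr5:108269511-108303450, held 4, with 0 of the 3 proteins at any of them. Each region named in this paragraph had 1 LDB1-AID only peak called in SMC3-AID cells after auxin, beside 9.4% of the whole class.

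SMC3-AID only peaks gathered at the start of the assembled chromosome 9. At chr9:3000606-3038252, 16 SMC3-AID only peaks and 2 shared sites lay within 37.6 kb. Of the 18 sites, 11 had RAD21 in the SMC3-AID list, 0 had RAD21 or CTCF in the LDB1-AID lists, and 2 had YY1. Over nearly the same span, chr9:3000055-3038244, LDB1-AID cells had 3 LDB1 peaks after 4 h of auxin. Untreated, they had 2 shared and 0 LDB1-AID only sites there. How well reads map there was not tested. Among regions with no shared site, chr3:58908401-58959274 held the most SMC3-AID only peaks, 5 over 50.9 kb. Of 2 such regions with 4, the first along the genome was chr1:146000417-146048084, spanning 47.7 kb. Neither had any of the 3 proteins at its LDB1 peaks. After auxin 4 of the 5 and 2 of the 4 peaks were also called, beside 51.5% of all SMC3-AID only peaks.

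Another list, of LDB1 peaks of SMC3-AID cells after 4 h of auxin, shows how far a second experiment on the same subline recovered unshared peaks. It held 7237 peaks, and cohesin had been targeted for degradation, so it is not a repeat of the untreated list. Of the 3537 LDB1-AID only peaks, 333 (9.42%, 8.50 to 10.4) were called in it. The list also held 83.3% of shared LDB1-AID peaks and 51.5% of SMC3-AID only peaks, both classes already called in untreated SMC3-AID cells. Allowing either SMC3-AID list, 7525 of 10729 LDB1-AID peaks (70.1%) were found and 3204 (29.9%, 29 to 30.7) were in neither. Of 523 peaks that SMC3-AID cells gained after auxin by this count, 333 (63.7%, 59.5 to 67.7) were present in untreated LDB1-AID cells. For all untreated SMC3-AID peaks that share was higher, at 84.1%.

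The recovered LDB1-AID only peaks had YY1 in 57 of 333 cases (17.1%, 13.5 to 21.5) and the other 3204 in 15.1% (13.9 to 16.4). The odds ratio was 1.16 (0.857 to 1.57; adjusted exact p = 0.358). With sharing by 50% of both peaks it was 1.68 and passed the test, but the class then takes in overlapping pairs with large offsets. RAD21 of LDB1-AID cells was at 19.2% of the recovered and 18.4% of the other peaks. Shared peaks divided more widely by the same list: YY1 was at 24.8% (23.7 to 25.9) of the 5992 shared LDB1-AID peaks called after auxin and at 13.5% (11.7 to 15.6) of the 1200 that were not. For SMC3-AID only peaks the intervals overlapped, with YY1 at 4.40% (3.12 to 6.18) of the 704 called after auxin and at 3.63% (2.45 to 5.34) of the other 662.

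Chromosomes differed in how much of LDB1 binding was shared. The shared part of the LDB1-AID list ran from 56.8% (52.3 to 61.2) on chromosome 12 to 72.0% (68.8 to 75.1) on chromosome 11, with chromosome X at 59.5% (52.5 to 66.1). The shared part of the SMC3-AID list ran from 78.7% on chromosome 1 to 91% (87.1 to 93.8), again on chromosome 12. Chromosome 12 held 463 LDB1-AID and 289 SMC3-AID peaks, 200 of the first and 26 of the second unshared. The ratio of LDB1-AID to SMC3-AID peaks was 1.60 there, 1.41 on X and 1.25 over all chromosomes, with the lowest value, 1.11, on chromosome 1.

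RAD21 peak numbers varied over the chromosomes alongside those of LDB1. The ratio of LDB1-AID to SMC3-AID RAD21 peaks was 2.18 over all chromosomes, 2.72 on chromosome 12, 2.56 on X and 1.95 on chromosome 3, the lowest. Over the 20 chromosomes, Pearson's r between the LDB1 and RAD21 ratios was 0.885 and Spearman's rho 0.725. Without chromosomes 12 and X they were 0.704 and 0.622 over 18. The chromosomes of a subline share its libraries, so these values are a description only, and the comparison was chosen after the values were seen. Whether the sublines differ in the copy number of single chromosomes was not tested, and a difference in copy number cannot be told apart here from one in binding. Leaving out chromosome 12 gave a YY1 odds ratio of 1.67 for shared against LDB1-AID only peaks.

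**Figure D4:**
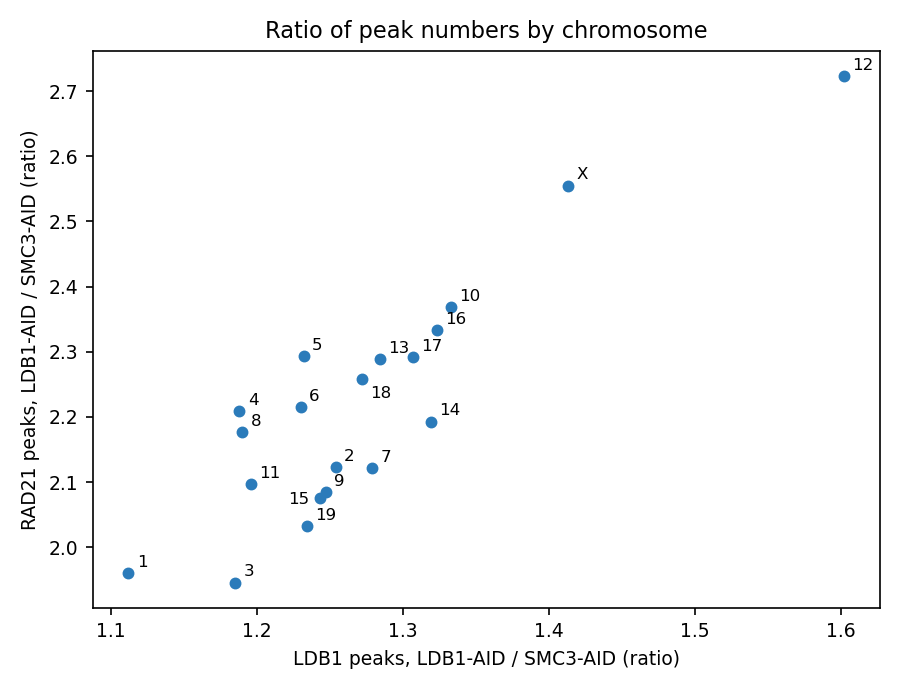
Each point is 1 of the 20 chromosomes: the ratio of LDB1-AID to SMC3-AID peak numbers for LDB1 (horizontal axis) and for RAD21 (vertical axis), both on linear axes that do not start at 0. Chromosomes 12 (1.60 and 2.72) and X (1.41 and 2.56) lie at the upper right.

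SMC3-AID only peaks lay more often than the other classes in wide stretches where LDB1-AID cells had no cohesin peak. Stretches of at least 200 kb without a RAD21 peak of LDB1-AID cells held 25.6% (23.3 to 27.9) of SMC3-AID only peaks, 8.28% (7.42 to 9.24) of LDB1-AID only peaks and 4.84% (4.37 to 5.36) of shared LDB1-AID peaks. These stretches covered 1487 Mb, or 58% of the sequence between the first and last RAD21 peaks of the chromosomes, so each class lay in them less often than their share of the sequence. For CTCF, with 46.4% of the sequence in such stretches, the shares were 19.03%, 8.26% and 5.41%. For YY1, with 81.7% of the sequence, they were 57.8%, 36.0% and 32.3%. With RAD21 of SMC3-AID cells, and 72.4% of the sequence, the classes stood closer, at 34.3%, 28.8% and 22.2%. Outside the stretches without RAD21 the order of YY1 was the same: it overlapped 5.21% (4.01 to 6.75) of the 1017 SMC3-AID only peaks there, 15.8% (14.6 to 17.1) of LDB1-AID only and 23.5% (22.5 to 24.5) of shared LDB1-AID peaks. The stretches were examined after other values had been seen, and no test was made.

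**Figure D5:**
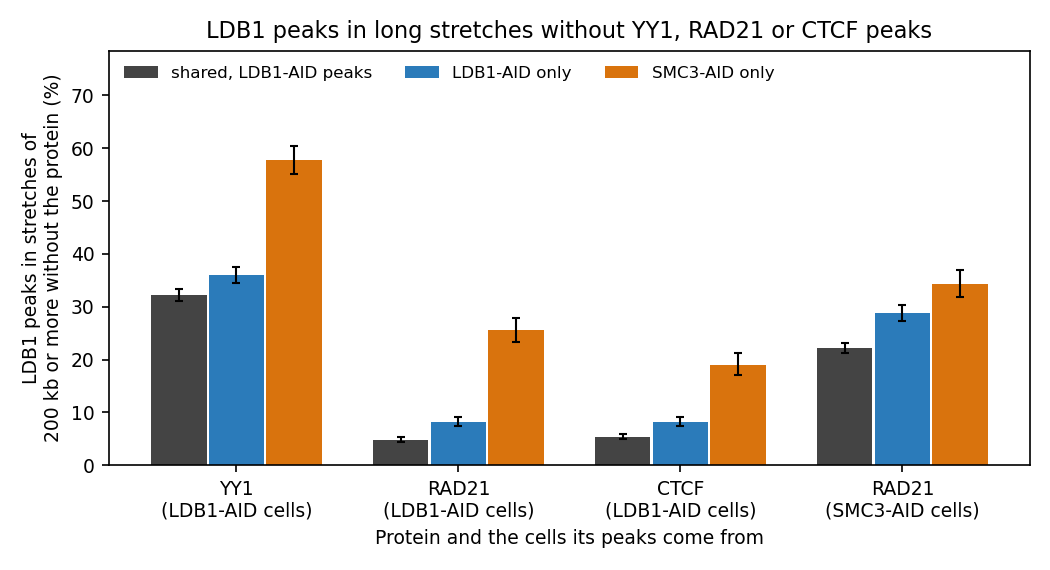
Share of each class of LDB1 peaks (vertical axis, %) that lies in a stretch of 200 kb or more without a peak of the protein named on the horizontal axis; bars are shares and error bars Wilson 95% intervals. SMC3-AID only peaks have the highest share for each of the 4 lists, 25.6% against 8.28% and 4.84% for RAD21 of LDB1-AID cells.

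In a few places LDB1 and cohesin were both called in SMC3-AID cells and not in LDB1-AID cells over long stretches. Of 15223 RAD21 peaks of SMC3-AID cells, 817 had no counterpart in LDB1-AID cells, and 10 blocks held at least 5 such peaks in a row. Apart from the start of chromosome 9, the 9 other blocks covered 6.14 Mb and held 62 RAD21 peaks of SMC3-AID cells against 1 of LDB1-AID cells. This RAD21 difference follows from how the blocks were picked. The 9 blocks contained 42 SMC3-AID only LDB1 peaks, and 0 shared and 0 LDB1-AID only peaks. For comparison, the 1487 Mb of stretches of at least 200 kb without RAD21 of LDB1-AID cells held few LDB1 peaks. They held 348 shared LDB1-AID, 293 LDB1-AID only and 349 SMC3-AID only peaks. At such a rate 6.14 Mb would hold very few of any class, so the counts of 0 are not read as a result. Of the 42, 32 were also called after auxin, beside 51.5% of all SMC3-AID only peaks. The same blocks held 0 YY1 and 54 CTCF peaks, both mapped in LDB1-AID cells. The whole lists held 12816 YY1 peaks over 2554 Mb and 54223 CTCF peaks over 2567 Mb, from first to last peak of each chromosome.

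The largest of these blocks, chr6:92734837-94350754, spanned 1616 kb and held 10 RAD21 peaks of SMC3-AID cells, 8 SMC3-AID only LDB1 peaks and 8 CTCF peaks. At chr15:96783800-97412414 there were 8 RAD21, 9 SMC3-AID only LDB1 and 10 CTCF peaks, and at chr3:97734365-98247614 there were 10, 6 and 4. In all 3, LDB1-AID cells had 0 LDB1, 0 RAD21 and 0 YY1 peaks. The blocks were picked by RAD21 calls after the values were seen, so their RAD21 counts follow from the choice. Their counts of 0 LDB1 peaks of LDB1-AID cells are not read as a result. All 10, with the start of chromosome 9, hold 58 of the 1366 SMC3-AID only peaks and 0 LDB1-AID only peaks. Without them the odds ratio of SMC3-AID RAD21 between the unshared classes was 1.28 in place of 0.895. Leaving out blocks picked by that RAD21 list favours such a rise, so nothing is concluded from it.

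Runs of consecutive LDB1 sites of 1 class along a chromosome fell partly in the same places. The longest SMC3-AID only runs held 10 peaks each, on chromosome 6 (chr6:92253295-94250961), at the start of chromosome 9 and on chromosome 15 (chr15:96800417-97421552). The longest LDB1-AID only run held 9 peaks at chr12:47855368-48813899, with 6 RAD21 peaks of LDB1-AID and 1 of SMC3-AID cells in the span. After auxin in SMC3-AID cells 0 of its LDB1 peaks were called, beside 9.42% of all LDB1-AID only peaks. Such runs were rare: 47.0% of LDB1-AID only and 58.8% of SMC3-AID only peaks stood in runs of 1, and 31 and 24 runs held 5 or more peaks.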

How the data were processed

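The authors deposited each peak set as a list of 400 bp intervals (chromosome, start, end), so the values are positions in bp, with no score. Bowtie2, MACS2 2.2.9.1 and deepTools 3.5.1, and the build mm9, are named per the submitters' processing notes. The step each tool was used for, its thresholds and the consensus rule are not given in the sources used here. Groups came from the sample titles.

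From the lists, peaks on chromosomes 1 to 19 and X were kept (12 LDB1-AID and 9 SMC3-AID LDB1 peaks were left out), and overlaps of at least 1 bp, midpoint distances and chains of 25 kb were computed in Python 3.11.15 with SciPy 1.17.1. Intervals of odds ratios are Woolf's. The logistic model used statsmodels 0.14.6. Overlap counts were checked against bedtools 2.31.1 (14 compared, 0 differed) and the functions tested on simulated data.

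Named regions are, per class, the 2 with the most peaks, the 2 with the most shared and no unshared sites, and, per unshared class, the 2 with the most peaks and no shared site. The runs and blocks lie outside this rule. Classes, tests and lists were chosen with earlier results of these data known. Sequence motifs were not analysed here, since no genome of the build was used.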

Additional observations from a re-analysis of the deposited data

Results flagged for a closer look

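The 2 unshared classes differed from each other under the same comparison, by a direct test, in all 3 protein lists of LDB1-AID cells. LDB1-AID only peaks had 4.31 times the odds of YY1, 5.10 times the odds of RAD21 and 3.49 times the odds of CTCF at SMC3-AID only peaks, with the higher share on 19, 20 and 19 of 20 chromosomes. With the RAD21 list of SMC3-AID cells the odds ratio was 0.895 (Fisher's exact test, two-sided, adjusted p = 0.570). No YY1 or CTCF list of untreated SMC3-AID cells was used here. The 2 RAD21 lists differ in length and were not tested against each other. The part played by the subline in which a protein was mapped was thus not tested for any of the 3 proteins.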

How the results depend on the processing

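Over 26 results, 241 alternative values were computed, 92 of them chosen after the data were seen, with unadjusted p-values compared with 0.05. Of 187 odds ratios, 170 kept their direction and side of the threshold, and 51 of 54 counts and offsets stayed within 1.5 times. For each exception below, the cause was not tested.

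The odds ratio of CTCF at shared against LDB1-AID only peaks (0.849) was 0.814 when CTCF had to overlap by 50% of both peaks and no longer passed the test. It turned to 1.06 with CTCF within 1 kb and to 1.01 among peaks also called after auxin in SMC3-AID cells. For CTCF at shared against SMC3-AID only peaks it was 1.35 in the logistic model. For neighbours within 25 kb, shared against LDB1-AID only turned to 0.939 among peaks called after auxin, and shared against SMC3-AID only fell short of the threshold at 1.06 with sharing by 50% and 1.10 with neighbours within 10 kb.

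For RAD21 of SMC3-AID cells, LDB1-AID only against SMC3-AID only turned to 1.13 without the first 3.1 Mb of chromosome 9. It was 1.28 without the 10 blocks, but these were picked by the same RAD21 calls, so leaving them out favours a higher value. Among peaks called after auxin it was 1.24. In that last subset shared against LDB1-AID only was 1.16 and shared against SMC3-AID only 1.44, neither past the test, and with RAD21 within 1 kb the latter was 1.17. The offset comparison for RAD21 was 0.895 with sharing by 50% and 0.912 with a limit of 25 bp, both short of the threshold. Past it were YY1 offsets within 100 bp (0.646) and YY1 at recovered LDB1-AID only peaks with sharing by 50% (1.68). With chains of 100 kb, which join more sites by construction, shared sites alone made up 1085 regions, LDB1-AID only peaks 533 and SMC3-AID only peaks 333.

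No paired analysis was possible because each list had been combined from its replicates before deposit, and replicates could not be left out for the same reason. The motif alternatives were not run. Without read depth or peak height, differences in calling between the lists cannot be told apart from differences in binding.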

Other observations

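Long runs of shared sites mark stretches where every LDB1 site was called in both sublines. The longest held 18 sites at chr10:80140725-82240252, with 52 YY1, 118 CTCF and 81 RAD21 peaks of LDB1-AID cells in the span, and 14 of the sites were also called in SMC3-AID cells after auxin. At the LDB1 sites themselves, RAD21 overlapped 4 and YY1 5 of the 18. A run of 15 at chr5:75677097-76158357 had RAD21 at 11 and YY1 at 7 of its sites. In contrast, a run of 14 spread over 3681 kb at chr9:110959485-114640912 had RAD21 at 0 and YY1 at 2 of its sites, while 13 of them were called after auxin. Of all shared LDB1-AID peaks, 83.3% were called after auxin in SMC3-AID cells. In all, 396 runs of shared sites held 5 or more. Runs depend on how common a class is, and no test was made.

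Peaks in larger chains had more RAD21 in both lists. In the LDB1-AID list RAD21 overlapped 17.98% of single peaks and 39.9% of peaks in chains of 5 or more, and in the SMC3-AID list 18.4% and 35.7%. The shared part of the LDB1-AID list was 65.0% (63.5 to 66.5) among single peaks and 68.1% (65.6 to 70.4) in chains of 5 or more. In the SMC3-AID list it was 82.3% (81.1 to 83.5) and 85.1% (82.1 to 87.7), with 88.0% (86.4 to 89.4) in chains of 3 to 4. These are values without a test.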
